A study of Mus musculus with 16 samples.

Results

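The transcripts of calcineurin, its inhibitor Rcan1, the NFAT factors and the main cardiac CaMKII genes were followed in the mouse heart under pressure overload, with and without added Cardinal, a heart-enriched long noncoding RNA. The 10 genes were taken by name as rows of the count table: Rcan1, the calcineurin subunit genes Ppp3ca, Ppp3cb and Ppp3r1, the NFAT genes Nfatc1, Nfatc2, Nfatc3 and Nfatc4, and the CaMKII genes Camk2d and Camk2g. They are 10 of 55573 genes in the table, and all 10 were among the 16857 genes that passed the filter on low counts. RNA of the heart apex was sequenced from 16 wild-type male mice, 4 in each of 4 groups. Pups had been injected under the skin on postnatal day 1 with AAV9-cTNT-GFP or AAV9-cTNT-CARDINAL, adeno-associated viruses whose cardiac troponin T promoter drives GFP or Cardinal in cardiomyocytes. As adults they underwent sham surgery or TAC (transverse aortic constriction), a ligature that narrows the aorta, and hearts were collected 4 weeks later. The groups are named by virus and surgery, from AAV9-GFP sham to AAV9-Cardinal TAC, and every mouse carried a virus. The labels call the mice separate samples but do not give litters, ages at surgery or days of collection.

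Calcineurin is a phosphatase that is switched on by calcium and calmodulin. It removes phosphates from NFAT proteins, which then enter the nucleus and switch on genes, among them the gene of the calcineurin inhibitor Rcan1, whose transcript is widely used as a readout of calcineurin and NFAT activity in the heart. CaMKII is a kinase that calcium and calmodulin also activate. It phosphorylates class II histone deacetylases, which then leave the nucleus and release MEF2 factors. Both arms are known to drive growth of the cardiomyocyte, and both are controlled mainly by calcium, phosphorylation and location in the cell, which transcript levels do not measure.

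The total count on genes was 16441997 to 21904589 in a mouse (median 21723766), of which 30.3 to 34.0% came from mitochondrially encoded genes. Levels are given as CPM (counts scaled to a common library size with TMM factors), on which 3 counts are worth 0.126 to 0.195 CPM. The lowest member, Nfatc4, had between 54 and 131 counts in a mouse. The 6 cardiomyocyte markers summed to 26034 CPM or more in every mouse and the 6 lymphocyte markers to at most 0.943 CPM, while the 4 atrial markers reached at most 2.53 CPM. The Cardinal transcript (Gm12295) was at 3.42 to 7.24 CPM in the 8 AAV9-GFP mice and at 26.2 to 40.0 CPM in AAV9-Cardinal sham. Among AAV9-Cardinal TAC mice it was at 93.9 CPM in replicate 1 and at 18.3, 19.5 and 20.6 CPM in replicates 4, 5 and 6. AAV9-Cardinal TAC replicate 1 stood apart in this. Without it the same genes of the 10 passed, with 1 (Rcan1) in the AAV9-Cardinal comparison, 0 between the TAC groups and 0 for the difference in response. Values without this mouse are given for Rcan1, Ppp3cb, the NFAT genes, Camk2g and the counts over all genes, and not for the other results.

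Of the 10 genes, Rcan1 was the only one past the threshold (adjusted p under 0.05) in both TAC comparisons. In AAV9-GFP hearts, TAC raised Rcan1 and Nfatc4 and lowered Ppp3cb, and 7 genes did not pass. In AAV9-Cardinal hearts, TAC raised Rcan1, and 9 genes did not pass. Of all tested genes, 17.4% passed in the AAV9-GFP comparison and 6.48% in the AAV9-Cardinal comparison, and against that background 3 of 10 and 1 of 10 say nothing of these genes as a group. The mice of the 2 groups did not overlap for 2 genes in AAV9-GFP (Rcan1 and Ppp3cb), beside 20.3% of tested genes, and for 2 in AAV9-Cardinal hearts (Rcan1 and Nfatc3), beside 13.7%. The median log2 fold change of the 10 genes was 0.02 in AAV9-GFP and 0.07 in AAV9-Cardinal hearts, beside 0.005 and -0.0005 over all tested genes. The comparisons share groups, so they are not independent of each other.

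**Figure D1:**
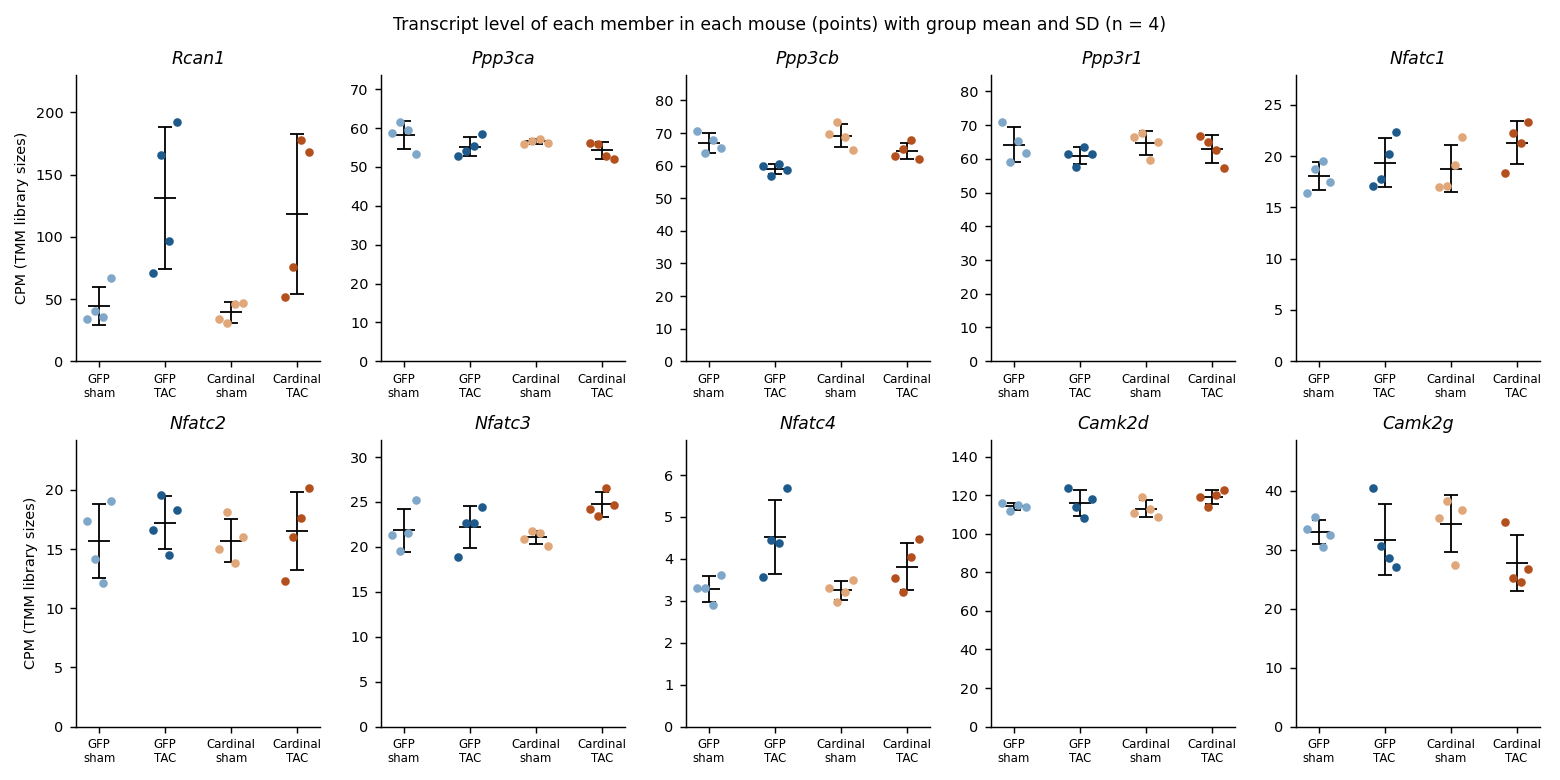
CPM of each of the 10 genes in each mouse (points, from low to high replicate number within a group), with the group mean and SD (n = 4), each y axis starting at 0. Rcan1 ranged from 30.9 to 47.2 CPM in AAV9-Cardinal sham and from 51.9 to 178 CPM in AAV9-Cardinal TAC mice, while Camk2d stayed between 108 and 124 CPM in all 16 mice.

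Rcan1 (ENSMUSG00000022951, chr16:92391953-92470867 on the minus strand of GRCm38) encodes a protein that binds and inhibits calcineurin. Its level in AAV9-GFP sham replicates 1 to 4 was 34.2, 40.6, 35.9 and 67.2 CPM, and in AAV9-GFP TAC replicates 1, 3, 4 and 7 it was 70.7, 166, 96.7 and 192 CPM. In AAV9-Cardinal sham replicates 1 to 4 it was 33.7, 30.9, 45.9 and 47.2 CPM, and in AAV9-Cardinal TAC replicates 1, 4, 5 and 6 it was 51.9, 75.6, 178 and 168 CPM. With either virus every TAC mouse was above every sham mouse, but by a small margin, because the highest sham mouse and the lowest TAC mouse lay close together. The TAC mice themselves split into 2 lower and 2 higher values in both groups.

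TAC raised Rcan1 by 2.95-fold in AAV9-GFP hearts (95% interval 1.66 to 5.25, log2 fold change 1.56, SE 0.39, adjusted p = 0.012). The rise in AAV9-Cardinal hearts was 3.01-fold (95% interval 1.69 to 5.38, log2 fold change 1.59, SE 0.393, adjusted p = 0.028). The difference between the 2 responses was 0.03 on the log2 scale, with a 95% interval of -1.13 to 1.19 (adjusted p = 0.99), so a response more than 2-fold larger or smaller with Cardinal lies within what these mice allow. The AAV9-GFP rise passed without any 1 of the 16 mice (log2 fold change 1.33 to 1.83). The AAV9-Cardinal rise was 1.84 without replicate 1 of the TAC group, the mouse with the highest Cardinal and the lowest Rcan1 of its group (adjusted p = 0.0094). It did not pass without AAV9-Cardinal sham replicate 1, 2 or 4 (log2 fold change 1.52, 1.49 and 1.69, adjusted p 0.078, 0.091 and 0.052) or TAC replicate 5 or 6 (1.32 and 1.38, adjusted p 0.096 and 0.088).

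Rcan1 transcripts start at more than 1 promoter, and one inside the gene, which makes a shorter transcript, is known as a target of calcineurin and NFAT. Windows were found before 2 RefSeq starts, an upstream and an internal one. The annotated gene begins further upstream, at base 92470867, and neither window reaches that start. The bases after the upstream window matched no GENCODE M21 transcript of the gene, while those after the internal window did. GENCODE M21 lists 7 transcripts of the gene, and counts per gene cannot tell from which promoter the added reads came. Both windows are shown because they differ in the letters NFAT proteins bind. Each is the 250 bases before a RefSeq start on GRCm38.p6 (minus strand, written in the direction of the gene), and capitals mark GGAAA, the core of NFAT sites, on either strand (TTTCC).
Rcan1 upstream promoter, chr16:92466170-92466419: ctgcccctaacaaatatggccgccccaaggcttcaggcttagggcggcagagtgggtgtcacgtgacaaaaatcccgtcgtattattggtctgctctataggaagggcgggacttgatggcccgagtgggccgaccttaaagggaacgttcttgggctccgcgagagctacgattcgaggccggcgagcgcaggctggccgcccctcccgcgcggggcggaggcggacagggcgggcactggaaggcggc
Rcan1 internal promoter, chr16:92400079-92400328: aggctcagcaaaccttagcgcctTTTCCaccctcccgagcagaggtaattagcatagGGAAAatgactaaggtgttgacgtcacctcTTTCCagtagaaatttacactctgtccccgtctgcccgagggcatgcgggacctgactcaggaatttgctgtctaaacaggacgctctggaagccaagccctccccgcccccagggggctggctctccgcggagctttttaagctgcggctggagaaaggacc
The internal window holds 3 copies of GGAAA, which start 227, 193 and 163 bases before the transcript, and the upstream window holds 0. Of 32851 RefSeq windows of the same length, 6.39% hold 3 or more copies and 55.6% hold at least 1. The internal window also holds 1 copy of TGANTCA, the AP-1 motif (in 6.75% of windows), and 1 of TGACGTCA, the cyclic AMP response element (1.55%), none of them overlapping. The upstream window holds 1 copy of CACGTG, the E-box (6.02%). A match of letters is a description of the window and was not tested as a binding site. Windows were found for 7 of the 10 genes, and a window each of Nfatc2, Nfatc4 and Ppp3cb also holds 3 copies of GGAAA.

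Rcan1 was a minor part of the transcripts of its family in sham hearts. Rcan2, a related calcineurin regulator, was at 367 ± 16.7 CPM in AAV9-GFP sham and 378 ± 16.4 CPM in AAV9-GFP TAC hearts (mean ± SD, n = 4). Rcan3 was at 8.04 ± 0.97 and 8.16 ± 1.06 CPM in the same groups, and neither gene passed the threshold in any comparison. With Cardinal, Rcan2 was at 367 ± 14.6 CPM after sham and 409 ± 24.8 CPM after TAC (log2 fold change 0.16, adjusted p = 0.084). Rcan3 was at 7.94 ± 0.245 and 7.07 ± 1.61 CPM in those groups. The Rcan1 share of all Rcan counts was 8.01 to 14.8% in AAV9-GFP sham and 16.1 to 32.7% in AAV9-GFP TAC mice. In AAV9-Cardinal mice it was 7.82 to 10.8% after sham and 11.9 to 29.2% after TAC, so the mice did not overlap with either virus. Such a share does not depend on how the libraries were scaled.

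Rcan1 also varied more between mice of a group than most genes. Its residual SD on the log2 scale was 0.614, against a median of 0.166 over all tested genes, and 94.0% of tested genes had a lower one. The 3 genes whose log2 CPM followed Rcan1 most closely over the 16 mice, of 14292 compared, were Itga5, the fibronectin receptor subunit alpha 5 (Pearson r = 0.979), Uck2, a uridine and cytidine kinase (0.972), and Ppm1e, a phosphatase known to act on CaM kinases (0.967). After the group means were removed, r was 0.943, 0.958 and 0.933, so mice of a group with more Rcan1 also had more of these transcripts. TAC raised all 3 in AAV9-GFP hearts (log2 fold change 0.77, 1.68 and 1.08) and in AAV9-Cardinal hearts (0.67, 1.41 and 1.12). These genes were picked for their likeness and come from the same libraries, so r describes these mice and has no p.

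**Figure D2:**
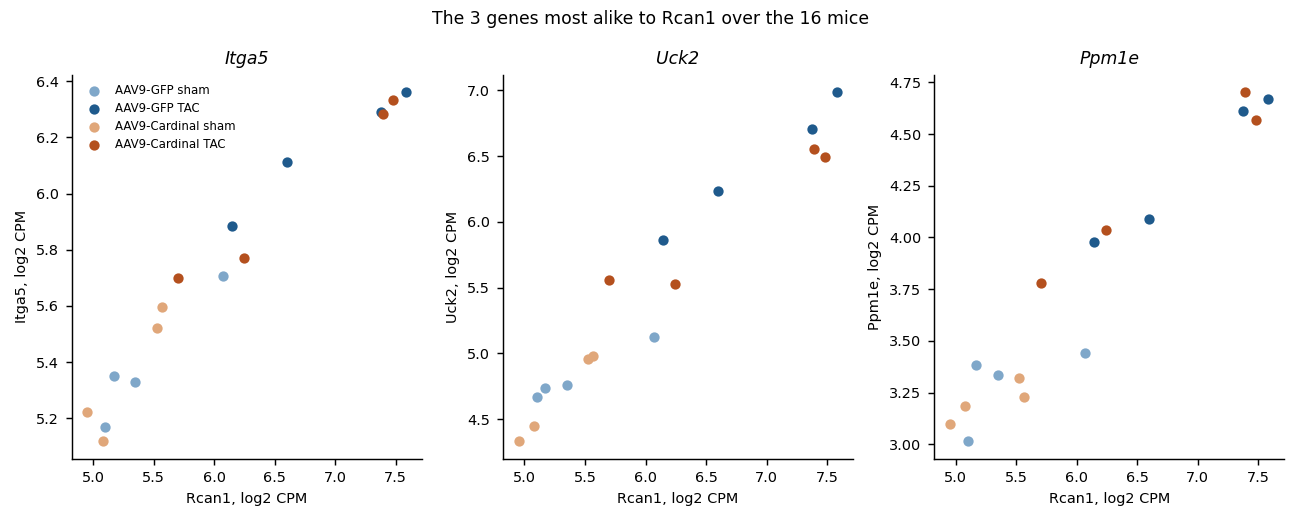
Log2 CPM of Itga5, Uck2 and Ppm1e (y axes) against log2 CPM of Rcan1 (x axes), 1 point per mouse, coloured by group (16 mice). The points lie along a rising line in each panel, with Pearson r of 0.979, 0.972 and 0.967, and the 2 lower TAC mice of each virus lie between the sham mice and the other TAC mice of the same virus.

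Calcineurin is built from a catalytic A subunit, which Ppp3ca, Ppp3cb and Ppp3cc encode, and a calcium-binding B subunit from Ppp3r1. Ppp3cb (ENSMUSG00000021816, chr14:20499364-20546573, minus strand), the beta form of the catalytic subunit, was the only one of the 3 listed subunit genes to change with TAC. It was at 70.6, 63.8, 68.0 and 65.5 CPM in AAV9-GFP sham replicates 1 to 4, and at 60.0, 56.9, 60.5 and 58.8 CPM in AAV9-GFP TAC replicates 1, 3, 4 and 7. All 4 TAC mice were below all 4 sham mice. The fall was small, -11.8% (log2 fold change -0.18, SE 0.0474, adjusted p = 0.015).

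In AAV9-Cardinal hearts, Ppp3cb was at 69.6, 73.3, 68.9 and 64.7 CPM in sham replicates 1 to 4, and at 63.1, 65.1, 67.8 and 62.1 CPM in TAC replicates 1, 4, 5 and 6. These groups overlapped, and the log2 fold change of -0.10 (95% interval -0.20 to 0.001) did not pass (adjusted p = 0.23), nor without TAC replicate 1 (-0.09, adjusted p = 0.34). Between the 2 TAC groups, all 4 AAV9-Cardinal mice were above all 4 AAV9-GFP mice, with a log2 difference of 0.13 (95% interval 0.03 to 0.23, adjusted p = 0.22). Of all tested genes, 6.77% had no overlap between these 2 groups. The difference in TAC response between the viruses was 0.08 (95% interval -0.06 to 0.22, adjusted p = 0.71), so a different response was not shown. Without AAV9-Cardinal TAC replicate 1 these were 0.14 (adjusted p = 0.15) between the TAC groups and 0.09 (0.58) for the response. The fall in AAV9-GFP hearts did not pass without sham replicate 1 or TAC replicate 3 (adjusted p 0.052 and 0.057).

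Ppp3ca, the alpha form, was between 52.0 and 61.5 CPM in all 16 mice, and Ppp3r1 between 57.2 and 70.8 CPM. Their log2 fold changes with TAC were -0.08 and -0.07 in AAV9-GFP and -0.06 and -0.04 in AAV9-Cardinal hearts, none past the threshold. The intervals bound a change tightly, from -0.18 to 0.03 for Ppp3ca and from -0.21 to 0.06 for Ppp3r1 in AAV9-GFP hearts. Ppp3ca supplied 39.5 ± 1.64% of catalytic subunit counts in AAV9-GFP sham and 39.8 ± 1.46% in AAV9-GFP TAC hearts (mean ± SD, n = 4), with 38.3 ± 0.82% and 38.5 ± 1.13% in the AAV9-Cardinal groups. Counts grow with transcript length, and per kb of annotated exon Ppp3ca, Ppp3cb and Ppp3cc were at 5.84, 7.60 and 7.44 CPM in AAV9-GFP sham hearts. The log2 fold change of Ppp3cc with TAC was 0.14 in AAV9-GFP and 0.02 in AAV9-Cardinal hearts (adjusted p 0.089 and 0.87). Of the 50-base stretches of Ppp3r1 transcripts, 13.0% also occur in Wdr92, a neighbour on the same strand whose exons overlap it, so part of its count could belong to either gene.

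Among the NFAT genes, Nfatc4 (ENSMUSG00000023411, chr14:55823144-55833943, plus strand), whose product is the NFAT protein known as NFAT3, rose with TAC in AAV9-GFP hearts. It was at 3.31, 3.31, 2.89 and 3.62 CPM in AAV9-GFP sham replicates 1 to 4, and at 3.56, 4.45, 4.37 and 5.70 CPM in TAC replicates 1, 3, 4 and 7. TAC replicate 1 was below sham replicate 4, and the other 3 TAC mice were above all sham mice. The rise was 1.38-fold (95% interval 1.13 to 1.68, log2 fold change 0.46, SE 0.136, adjusted p = 0.029).

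With Cardinal, Nfatc4 was at 3.30, 2.97, 3.22 and 3.50 CPM in sham replicates 1 to 4, and at 3.54, 3.20, 4.05 and 4.47 CPM in TAC replicates 1, 4, 5 and 6. The groups overlapped, and the log2 fold change of 0.23 (95% interval -0.06 to 0.53) did not pass (adjusted p = 0.35). The difference between the responses was -0.23 (95% interval -0.64 to 0.19, adjusted p = 0.73). Without AAV9-Cardinal TAC replicate 1 the log2 fold change was 0.27 (adjusted p = 0.30) and the difference between the responses -0.19 (0.72). The AAV9-GFP rise did not pass without sham replicate 1, 2 or 3 or TAC replicate 3 or 7 (adjusted p 0.059, 0.059, 0.088, 0.059 and 0.097), nor when only the 8 AAV9-GFP mice were fitted (0.072).

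Cell type markers also differed between the sham and TAC mice of these groups. The 6 fibroblast markers summed to 490 to 551 CPM in AAV9-GFP sham and 855 to 1105 CPM in AAV9-GFP TAC mice (medians 516 and 891). Of the 6, 4 rose (Col1a1, Col1a2, Col3a1 and Postn), where 17.4% of all tested genes passed. Pdgfra and Dcn did not pass (log2 fold change 0.18 and 0.055, adjusted p 0.37 and 0.74). In AAV9-Cardinal mice the fibroblast sum was 477 to 526 CPM after sham and 497 to 928 CPM after TAC (medians 479 and 540). There 1 of the 6 rose, beside 6.48% of all tested genes that passed. The 6 cardiomyocyte markers summed to 34883 to 36185 CPM in AAV9-GFP sham and 26034 to 31888 CPM in AAV9-GFP TAC mice, where 4 of the 6 fell. In AAV9-Cardinal mice that sum was 33615 to 37313 CPM after sham and 31522 to 35173 CPM after TAC, and 1 of the 6 rose. Myh6 was the largest part of the cardiomyocyte sum (19200 ± 476 CPM in AAV9-GFP sham). The cardiomyocyte markers that did not pass in AAV9-GFP hearts were Ttn and Actn2, the latter with a log2 fold change of 0.20 (adjusted p = 0.077). In AAV9-GFP mice, macrophage markers summed to 105 to 121 CPM after sham and 123 to 140 CPM after TAC (1 of 6 rose). Endothelial markers summed to 439 to 535 and 506 to 613 CPM (1 of 6 rose), and smooth muscle and pericyte markers to 598 to 827 and 640 to 690 CPM (2 of 6 rose). Bulk RNA cannot tell fewer cells of a type from less RNA per cell, and the part of cell makeup in these results was not tested.

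The other NFAT genes did not pass in any comparison. Nfatc3 came nearest, in AAV9-Cardinal hearts, where it was at 20.9, 21.8, 21.5 and 20.1 CPM in sham replicates 1 to 4 and at 24.2, 23.4, 26.6 and 24.7 CPM in TAC replicates 1, 4, 5 and 6. All 4 TAC mice were above all 4 sham mice, but the log2 fold change of 0.23 (SE 0.0827) had an adjusted p of 0.11, and without TAC replicate 1 it was 0.24 (0.12). In AAV9-GFP hearts the same gene was at 19.5 to 25.2 CPM after sham and 18.9 to 24.4 CPM after TAC (log2 fold change 0.02, adjusted p = 0.91). The difference between the responses was 0.21, with a 95% interval of -0.04 to 0.46.

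Nfatc1 was between 16.4 and 23.3 CPM and Nfatc2 between 12.1 and 20.2 CPM over the 16 mice. Their log2 fold changes were 0.10 and 0.14 in AAV9-GFP and 0.19 and 0.07 in AAV9-Cardinal hearts, with adjusted p between 0.32 and 0.86. Without AAV9-Cardinal TAC replicate 1 the latter pair were 0.26 and 0.19 (adjusted p 0.15 and 0.47). For Nfatc2 the interval in AAV9-GFP hearts, -0.20 to 0.47, is wide beside those of the calcineurin subunits. Nfatc4 was the smallest part of the 4 NFAT genes, with 5.58 ± 0.327% of their counts in AAV9-GFP sham and 7.09 ± 0.719% in AAV9-GFP TAC hearts (mean ± SD, n = 4). In AAV9-Cardinal hearts its share was 5.53 ± 0.398% and 5.74 ± 0.563%.

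**Figure D3:**
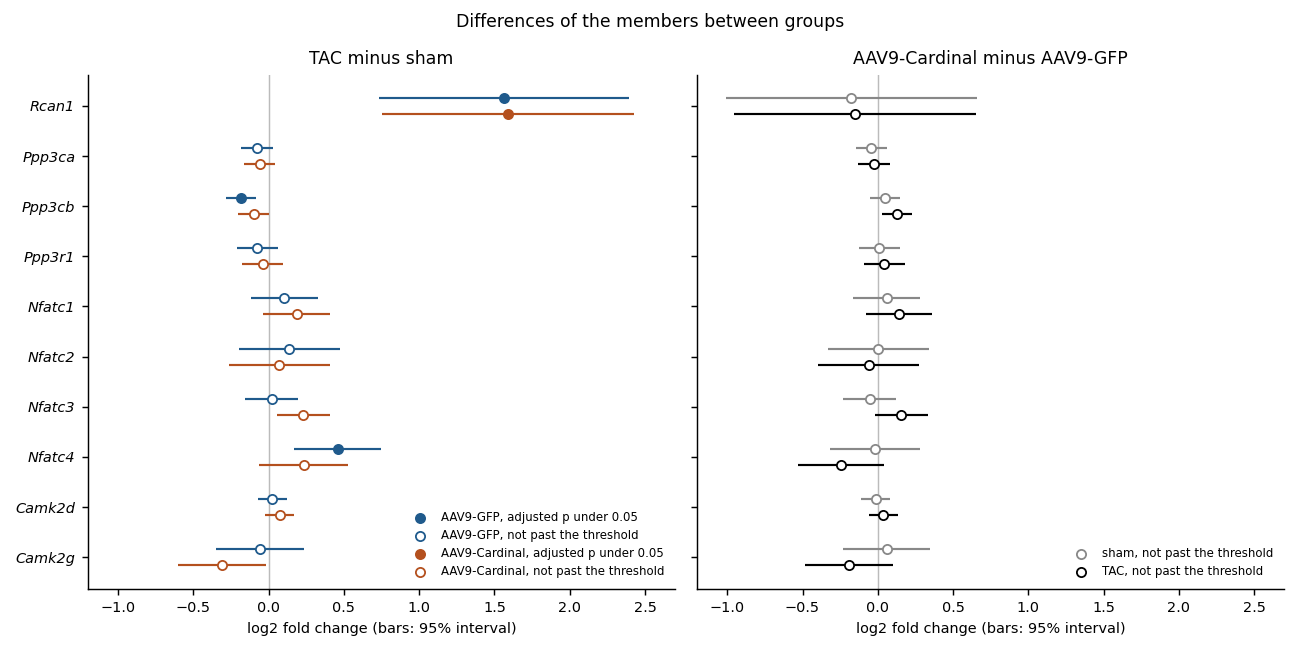
Log2 fold change of each of the 10 genes with its 95% interval, for TAC against sham (left, blue AAV9-GFP, orange AAV9-Cardinal) and AAV9-Cardinal against AAV9-GFP (right, grey sham, black TAC), with filled points past the threshold. Rcan1 has the largest changes, 1.56 and 1.59, and the widest intervals, and no point in the right panel is filled.

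Camk2d encodes the delta form of CaMKII, the main form in cardiomyocytes. It was between 108 and 124 CPM in all 16 mice, and its log2 fold change with TAC was 0.02 (95% interval -0.07 to 0.12) in AAV9-GFP and 0.07 (-0.02 to 0.17) in AAV9-Cardinal hearts. Its residual SD of 0.0557 was among the lowest, with 1.86% of tested genes below it. Camk2g, the gamma form, was at 33.5, 35.5, 30.5 and 32.5 CPM in AAV9-GFP sham replicates 1 to 4, and at 40.5, 30.6, 28.6 and 27.1 CPM in TAC replicates 1, 3, 4 and 7. In AAV9-Cardinal hearts it was at 35.3, 38.2, 27.3 and 36.7 CPM in sham replicates 1 to 4, and at 34.6, 25.1, 24.5 and 26.7 CPM in TAC replicates 1, 4, 5 and 6. TAC replicate 1 was the highest of its group with either virus, and sham and TAC mice overlapped. The log2 fold change was -0.06 in AAV9-GFP and -0.31 in AAV9-Cardinal hearts (SE 0.137, adjusted p = 0.20). Without AAV9-Cardinal TAC replicate 1 the latter was -0.43 (adjusted p = 0.058).

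The list of related genes also held Camk2a and Camk2b, forms best known from neurons. Camk2a was at 47.0 ± 3.46 CPM in AAV9-GFP sham and 29.1 ± 6.21 CPM in AAV9-GFP TAC hearts (log2 fold change -0.69, SE 0.115, adjusted p = 0.00083). In AAV9-Cardinal hearts it was at 47.3 ± 3.25 and 35.9 ± 2.90 CPM, and the log2 fold change of -0.39 had an adjusted p of 0.052. Camk2b, which varied widely between mice, was at 12.2 ± 5.48 CPM in AAV9-GFP sham and 8.29 ± 3.19 CPM in AAV9-GFP TAC hearts, and at 13.8 ± 2.69 and 10.3 ± 0.296 CPM with Cardinal (log2 fold change -0.55 and -0.41, adjusted p 0.28 and 0.50). The Camk2a share of the counts of the 4 CaMKII genes was 21.4 to 23.6% in AAV9-GFP sham and 13.5 to 17.7% in TAC mice, and 21.5 to 23.8% and 16.9 to 19.7% in the AAV9-Cardinal groups. The Camk2d share was 55.4 ± 2.60% in AAV9-GFP sham and 63.0 ± 3.48% in AAV9-GFP TAC hearts, and 54.2 ± 2.24% and 61.7 ± 2.33% with Cardinal. The Camk2g share was 14.5 to 16.9% in AAV9-GFP sham and 14.9 to 18.9% in AAV9-GFP TAC mice, and 13.8 to 17.8% and 12.9 to 17.0% with Cardinal. The Camk2a shares of sham and TAC mice did not overlap with either virus, whereas the highest Camk2d share in AAV9-GFP sham, 58.3%, was above the lowest in AAV9-GFP TAC, 57.8%. These are shares of counts, which grow with transcript length, and not shares of transcripts. Per kb of annotated exon, AAV9-GFP sham hearts had 6.29 ± 0.464 CPM of Camk2a and 5.15 ± 0.326 of Camk2g. Camk2d was at 5.07 ± 0.0757 and Camk2b at 1.33 ± 0.6 on that scale. Exon length counts every annotated transcript, 28 for Camk2d, which lowers its value, so this order of the CaMKII genes is uncertain.

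**Figure D4:**
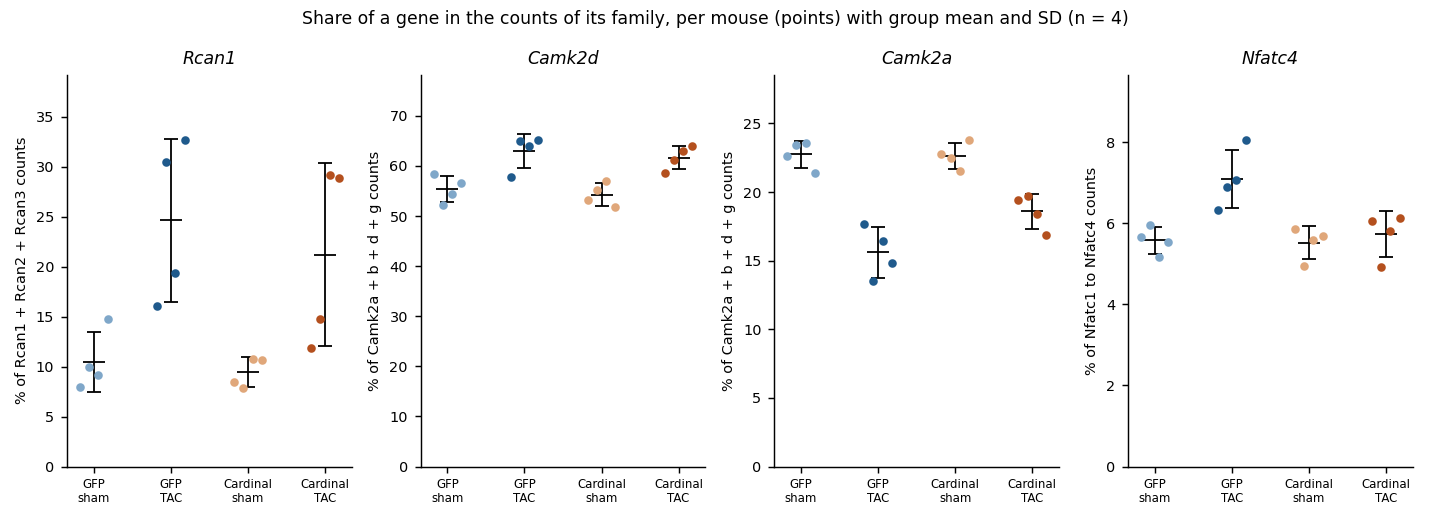
Share of Rcan1, Camk2d, Camk2a and Nfatc4 in the counts of their families in each mouse (points), with group mean and SD (n = 4) and y axes from 0%. The Camk2a share was 21.4% or more in every sham mouse and 19.7% or less in every TAC mouse, and the Rcan1 share was at most 14.8% in sham and at least 11.9% in TAC mice.

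Around these 10 genes, 52 genes in 6 lists were looked at, of which 48 could be tested (Ppp3r2, Myoz1, Trpc4 and Trpc6 were too low). In AAV9-GFP hearts 4 of the 48 rose, 9 fell and 35 did not pass, beside 17.4% of all tested genes that passed, with a median log2 fold change of 0.02. In AAV9-Cardinal hearts 0 rose, 2 fell and 46 did not pass, beside 6.48% of all tested genes, with a median of -0.03. No gene of these lists passed between the viruses, after sham or TAC, or for the difference in response.

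Of 8 tested calcineurin-binding proteins and regulators, 3 rose and 1 fell in AAV9-GFP hearts, where 17.4% of all tested genes passed. TAC raised Akap5, an anchoring protein that holds calcineurin at membranes (log2 fold change 1.10, adjusted p = 0.032), Cib1, which is known to anchor calcineurin at the sarcolemma (0.38, 0.018), and Fkbp1a, an FK506-binding protein (0.18, 0.037). Akap5 was low, at 1.32 to 2.69 CPM in AAV9-GFP sham and 2.32 to 6.6 CPM in AAV9-GFP TAC mice, which overlapped. Akap6, the anchoring protein of the nuclear envelope, fell (-0.33, adjusted p = 0.0089). The same 4 genes had log2 fold changes of -0.10, 0.30, 0.14 and -0.14 in AAV9-Cardinal hearts, none past the threshold.

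Of 10 genes of CaMKII- and calcineurin-linked transcription, 1 rose and 4 fell in AAV9-GFP hearts, again beside 17.4% of all tested genes. The class II deacetylase genes Hdac4 (log2 fold change -0.64, adjusted p = 0.0081) and Hdac5 (-0.24, 0.018) fell, and Hdac7 rose (0.33, 0.0049). Mef2a, a MEF2 factor that these deacetylases repress, fell in both comparisons, with log2 fold changes of -0.46 in AAV9-GFP (adjusted p = 0.0027) and -0.42 in AAV9-Cardinal hearts (0.015). Mef2d, another MEF2 factor, fell as well, with -0.16 (adjusted p = 0.038) and -0.26 (0.0084). Hdac4 was at -0.47 in AAV9-Cardinal hearts, with an adjusted p of 0.078.

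In the 4 other lists, 1 gene each changed in AAV9-GFP hearts. Beside Camk2a these were Camk2n1, an inhibitor of CaMKII (-0.42, adjusted p = 0.034), Mapk14, the p38 alpha kinase that phosphorylates NFAT (-0.36, 0.014), and Cacna1c, the pore subunit of the L-type calcium channel (-0.32, 0.0046). In AAV9-Cardinal hearts Camk2n1 was at -0.003, Mapk14 at -0.30 and Cacna1c at -0.05, with adjusted p of 1, 0.064 and 0.76. For none of these was the difference between the responses past the threshold.

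**Figure D5:**
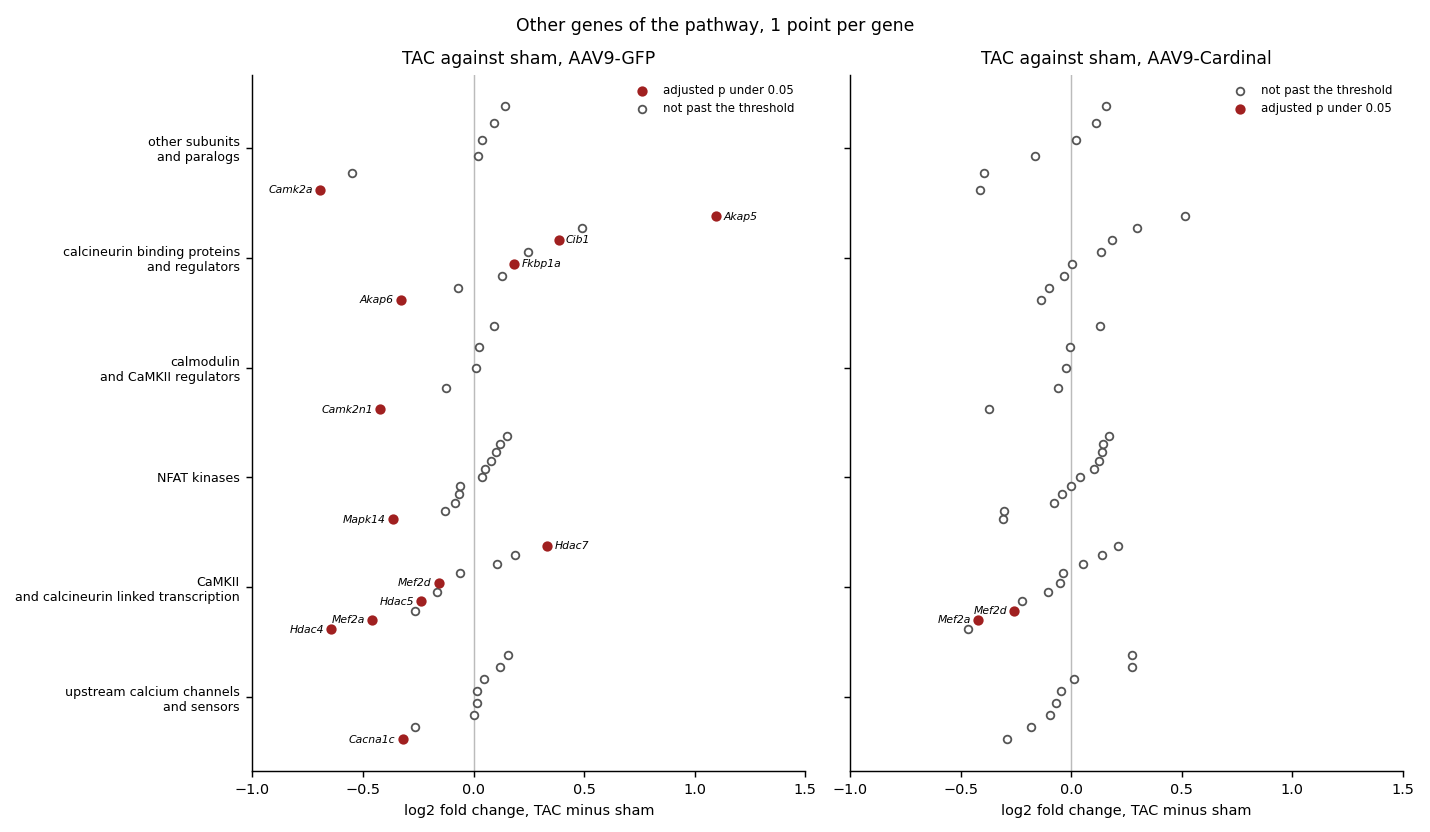
Log2 fold change with TAC of the 48 tested related genes (1 point per gene, grouped by list), in AAV9-GFP (left) and AAV9-Cardinal hearts (right), with filled points past the threshold. In AAV9-GFP hearts 13 points are filled, from -0.69 for Camk2a to 1.10 for Akap5, and in AAV9-Cardinal hearts 2 are, Mef2a and Mef2d.

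Adding Cardinal did not move any of the 10 genes past the threshold. After sham surgery their log2 differences between AAV9-Cardinal and AAV9-GFP hearts were between -0.18 (Rcan1) and 0.06 (Nfatc1), and after TAC between -0.24 (Nfatc4) and 0.16 (Nfatc3). With edgeR, 0 of 10 genes passed after sham, after TAC and for the difference in response, where 0, 1 (Ppp3cb) and 0 had an unadjusted p under 0.05. DESeq2 also called 0 in each. Without AAV9-Cardinal TAC replicate 1 the Rcan1 difference after TAC changed from -0.15 to 0.10 (adjusted p 0.91 and 0.92). The mice did not overlap for 0 genes between the sham groups, beside 2.36% of tested genes, and for 1 gene, Ppp3cb, between the TAC groups, beside 6.77%. Of all tested genes 0.0119%, 0.101% and 0.0119% passed in these comparisons. The number of genes behind the latter shares, 17 and 2, was 535 and 79 without AAV9-Cardinal TAC replicate 1. For Rcan1 the 95% interval was -1.01 to 0.66 after sham and -0.95 to 0.65 after TAC, and for Camk2d the intervals were -0.11 to 0.08 and -0.06 to 0.13.

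Divided by the length of annotated exons, the levels order the genes within a group. In AAV9-GFP sham hearts the order was Ppp3r1 (19.9 ± 1.58 CPM per kb, mean ± SD, n = 4), Rcan1 (14.4 ± 4.98), Ppp3cb (7.60 ± 0.339), Ppp3ca (5.84 ± 0.351), Camk2g (5.15 ± 0.326), Camk2d (5.07 ± 0.0757), Nfatc1 (2.41 ± 0.18), Nfatc3 (1.87 ± 0.205), Nfatc2 (1.48 ± 0.296) and Nfatc4 (0.565 ± 0.0514). The ranges of the mice overlapped between Ppp3r1 and Rcan1, between Ppp3ca, Camk2g and Camk2d in turn, and between Nfatc3 and Nfatc2. In AAV9-GFP TAC hearts Rcan1 came first with 42.5 ± 18.4 CPM per kb, above Ppp3r1 at 18.9 ± 0.756 with no overlap. In AAV9-Cardinal TAC hearts it also came first, with 38.4 ± 20.7, but replicate 1 at 16.8 CPM per kb lay below Ppp3r1. Exon lengths count every annotated transcript, which lowers the value of genes with many of them, such as Camk2d with 28.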

How the data were processed

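Poly(A)-selected libraries had been read from 1 end, 50 bases long. The table that the authors deposited holds raw counts, with Ensembl genes in rows and 1 column for each mouse, not normalized, and every column was used. The submitters' processing notes name FastQC, HISAT2 2.1.0, edgeR 3.26.1 and GRCm38, while the counting program, annotation, use of strand and treatment of reads with several matches are not given in the sources used here. GENCODE M21 named 55480 of the 55573 genes. With 50-base reads, transcripts of 1 gene cannot be separated in such counts.

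Testing used edgeR 4.0.16 under R 4.3.3. Libraries were scaled by TMM, filterByExpr kept 16857 genes, and 5 contrasts were tested by quasi-likelihood in 1 model holding the 4 groups and 16 mice. P-values are two-sided and were adjusted over all tested genes by the Benjamini-Hochberg method, with a threshold of 0.05. They set a difference between groups against the spread between mice of a group, estimated over all 16 mice and in part from other genes. Intervals are 95% intervals from that fit. Log2 CPM used a prior count of 2. The floor of 3 counts covers counting error only.

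The 10 genes and the lists of related genes and markers were chosen with earlier results of these data known. All 10 genes are named with values. Of each list of related genes, up to 4 past the threshold with the largest change and at least 1 CPM in the higher group are named per comparison, and for each of the 10 that passed, the 3 genes with the highest Pearson r over the mice. Mef2d in AAV9-GFP hearts and the genes that did not pass are given beside these. Promoter windows came from RefSeq (GRCm38.p6). The alternatives were DESeq2 1.42.0, RLE library sizes, no filter or at least 1 CPM in 4 mice, a robust fit, mitochondrial genes left out, an offset for GC content, the mouse number as a block, only the mice compared, and each mouse left out in turn. The method was tested on simulated data. Figures were drawn in Python 3.11.15 with matplotlib 3.10.9.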

Additional observations from a re-analysis of the deposited data

Results flagged for a closer look

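Dixon's test for a highest or lowest mouse far from the others of its group picked out 0 of the 40 group values of the 10 genes, where chance would give about 2. No difference between the 2 responses to TAC passed the threshold for these genes.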

How the results depend on the processing

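The rise of Rcan1 in AAV9-GFP hearts passed under all 9 other settings (log2 fold change 1.22 to 1.57, highest adjusted p 0.021) and without any 1 mouse. Under the replicate block, 1 of the 10 genes (Rcan1) passed in the AAV9-GFP comparison in place of 3, and 0 in the AAV9-Cardinal comparison in place of 1 (Rcan1 at 0.73, adjusted p = 0.26). AAV9-Cardinal TAC replicates 5 and 6 and AAV9-GFP TAC replicate 7 share their number with no other mouse. Such a block gives them no weight in a contrast. The blocked AAV9-Cardinal value thus rests on TAC replicates 1 and 4, with Rcan1 at 51.9 and 75.6 CPM, and not on replicates 5 and 6, at 178 and 168 CPM. The labels do not say what the mouse numbers mark, and 4 of 16 same-numbered pairs had deviations correlated above 0.1 (median 0.054, against -0.013 for different numbers). Of 13 mice with a same-numbered mouse in another group, 5 correlated best with their own number. No chance level was computed for this, so it cannot tell whether the numbers mark pairs or batches. Because the labels do not say, the main fit used no block. With 1 mouse left out, 1 to 3 genes passed in the AAV9-GFP comparison and 0 to 1 in the AAV9-Cardinal comparison. The count in AAV9-GFP hearts was 1 without sham replicate 1 or TAC replicate 3. Nfatc4 also did not pass with no filter on low counts (adjusted p = 0.055). The other 3 comparisons gave 0 genes throughout. Of 1240 recomputed log2 fold changes, 53 had another sign than the reported value, all for values not past the threshold, and the causes were not tested.

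Over all genes, the AAV9-Cardinal comparison called 1092, with 615 under no filter. It called 31 under the replicate block, which gives TAC replicates 5 and 6 no weight. With 1 mouse left out it called 384 to 1436, and fewest without AAV9-Cardinal sham replicate 1, 2 or 4 (581, 395 and 651) or TAC replicate 5 or 6 (384 and 511). After TAC, AAV9-Cardinal against AAV9-GFP called 17, with 428 by DESeq2, 35 with at least 1 CPM in 4 mice, 30 without mitochondrial genes, 3 with no filter or only the mice compared, and 0 under the replicate block. Without AAV9-Cardinal TAC replicate 1 it called 535, without AAV9-GFP TAC replicate 4 or 1 it called 79 or 57, without AAV9-GFP sham replicate 4 it called 14, and without any 1 of the other 12 mice 0 to 8. The difference in response called 2, with 137 by DESeq2, 1 under the replicate block, 79 without AAV9-Cardinal TAC replicate 1, and 2 or 3 without any other mouse. The sham comparison called 2, with 4 by DESeq2, 1 under the replicate block and 1 to 3 with 1 mouse left out. Depth limits Nfatc4 most, with 54 counts in its lowest mouse.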

Other observations

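The genes most alike to the other 2 that passed were of other kinds. For Nfatc4 they were Ehd2, a protein of caveolae (Pearson r = 0.924 over 16 mice), Sema5a, a semaphorin (0.902), and 2310057M21Rik (0.901), and r was 0.863, 0.823 and 0.845 after the group means were removed. Ehd2 was at a mean of 84.2 CPM in AAV9-GFP sham and rose with TAC (log2 fold change 0.39, SE 0.099, adjusted p = 0.013), as did Sema5a (0.89, adjusted p = 0.013), while in AAV9-Cardinal hearts they were at 0.20 and 0.60 (adjusted p 0.25 and 0.14).

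For Ppp3cb they were Sgo2a, a shugoshin of chromosome cohesion (r = 0.933), Ppip5k2, an inositol pyrophosphate kinase (0.926), and Nadk2, the mitochondrial NAD kinase (0.91), with r of 0.776, 0.749 and 0.712 after the group means were removed. All 3 fell with TAC in AAV9-GFP hearts (log2 fold change -0.58, -0.79 and -0.72). Nadk2 also fell in AAV9-Cardinal hearts (-0.49, adjusted p = 0.0055), where Ppp3cb did not pass. These genes were chosen for their likeness, come from the same libraries, and have no p for r.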
